A study of Mus musculus with 22 samples.

Results

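A set of 9 genes of prostaglandin E2 production, sensing and removal were followed across all 10 sample groups of an RNA-seq series on mpkCCD cells, a mouse kidney cell line of cortical collecting duct origin. They were the receptor genes Ptger1, Ptger2, Ptger3 and Ptger4, the cyclooxygenase genes Ptgs1 and Ptgs2, the terminal synthase gene Ptges, the inactivating enzyme gene Hpgd and the transporter gene Slco2a1. These 9 genes were picked by symbol from a table of 54514 gene entries, and each matched 1 line. Values are TPM, a transcript abundance corrected for length and scaled to a fixed total in each library, so levels of different genes can be set side by side per length.

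All cells descended from mpkCCDc11 secondary clone 38 and were polarised on transwells in a serum-free medium that held dexamethasone. Unsorted wild-type (WT) cells were labelled either no dDAVP or dDAVP, with 3 libraries each. dDAVP (desmopressin) is an agonist of the vasopressin V2 receptor, which raises cAMP and with it the water channel gene Aqp2. A GFP reporter for aquaporin-2 was present in 4 clones, C1, C11, C43 and C50, which were all given dDAVP. Sorting split the cells of a clone by GFP, giving 2 GFP-negative and 2 GFP-positive libraries each. Each clone is a single clonal line, and clone, reporter and sorting cannot be told apart when clone groups are set beside WT groups. The protocol text names 0.1 and 1 nM dDAVP and 24 and 48 h without tying a dose or time to a library. Nothing in the labels says that replicates came from separate cultures, so p-values measure only the spread between these libraries, which may be technical.

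Prostaglandin E2 is made when phospholipases release arachidonate, a cyclooxygenase converts it to prostaglandin H2 and a terminal synthase such as Ptges completes the product. Ptgs1 is regarded as the constitutive cyclooxygenase and Ptgs2 as the inducible one. The hormone acts through EP receptors: EP1 (Ptger1) couples to calcium signalling, EP3 (Ptger3) lowers cAMP, and EP2 (Ptger2) and EP4 (Ptger4) raise it. In the collecting duct it is known as a local modulator of vasopressin-driven water and sodium transport. Slco2a1 carries prostaglandins into cells, where Hpgd, 15-hydroxyprostaglandin dehydrogenase, inactivates them.

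Of 12 principal cell markers, 9 had a mean of at least 1 TPM, while Elf5 and Kcnj1 were below 0.1. Markers of thick ascending limb, fibroblasts and endothelium reached that mean for 0 of 2, 0 of 5 and 0 of 3 genes, against 2 of 7 for intercalated cells, 1 of 3 for proximal tubule (Lrp2) and 2 of 5 for macrophages (Csf1r and Cd68, with Adgre1 and Lyz2 below 0.1). Their summed level ranged from 619.62 to 10796 TPM for the principal cell list, from 21.5 to 112.42 for the intercalated list and from 11.7 to 31.6 for the macrophage list. The principal cell sum includes Aqp2, which alone had a group mean of 6951.8 TPM in C43 GFP-positive cells. Aqp2 rose with dDAVP in WT cells by 5.36 on the log2 scale and was higher in GFP-positive than GFP-negative fractions by 3.11 over the clones, where GFP itself was higher by 6.73. Libraries held between 12293 and 14341 genes at 1 TPM or more. Genes above 0 TPM ran more widely, from 17177 to 31292, also within groups (30855 and 19002 in C43 GFP-negative). Sequencing depth is unknown because TPM keeps none. The first GFP-negative library of C50 stood apart, with 8.32% of its TPM in ribosomal protein genes against 3.85 to 6.12% in the other 21, and the members' fraction differences over the clones are also given without it.

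The upstream stretches of 2 members are shown because Ptges was the member synthase that moved in both main comparisons and Ptgs2 is the inducible enzyme one step before it, which did not pass the test in either. Each line holds the 250 bases before the RefSeq start in GRCm38.p6, 5′ to 3′, with matches to the GC box (GGGCGG, either strand) in capitals. The first runs over chr2:30903298-30903547 on the minus strand and the second over chr1:150099781-150100030 on the plus strand.
Ptges: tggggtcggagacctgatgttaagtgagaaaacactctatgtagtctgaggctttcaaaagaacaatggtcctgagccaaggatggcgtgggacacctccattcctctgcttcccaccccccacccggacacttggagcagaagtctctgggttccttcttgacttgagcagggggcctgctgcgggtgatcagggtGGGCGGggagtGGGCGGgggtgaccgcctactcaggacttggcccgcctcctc
Ptgs2: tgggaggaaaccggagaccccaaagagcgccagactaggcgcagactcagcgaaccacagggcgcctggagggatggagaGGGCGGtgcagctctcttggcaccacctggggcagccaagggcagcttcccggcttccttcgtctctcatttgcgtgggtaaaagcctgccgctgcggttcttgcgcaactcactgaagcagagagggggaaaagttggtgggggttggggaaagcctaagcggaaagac
The search covered windows of 300 bases (250 before and 50 after the start) in 8 of the 9 members, from RefSeq. The Ptges window held 2 GC boxes, with first bases at -53 and -42 from the start, and no match to the cAMP response element TGACGTCA, its shorter core TGACG, the E-box CACGTG or the TATA box TATAAA. The Ptgs2 window held 1 GC box at -170 and, past the RefSeq start, the core TGACG at 14 and an overlapping E-box at 17. The core and the E-box lie outside the printed stretch, and whether they count as past the start depends on the start used. Over 32851 mouse windows of this length, 35.7% held a GC box, 20.8% the TGACG core, 7.15% the E-box, 13.6% the TATA box and 1.79% the whole TGACGTCA element. These matches describe letters only.

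Among the 4 receptor genes, Ptger4 and Ptger1 were expressed and Ptger2 and Ptger3 were near 0. Ptger4 ran from 47.2 to 144.14 TPM over the 22 libraries with a median of 116.0, and Ptger1 from 7.22 to 84.2 TPM with a median of 23.9. Ptger2 did not exceed 0.23 TPM and was listed at 0 in 11 of 22 libraries. Ptger3 did not exceed 0.34 TPM and was at 0 in 4 libraries. Ptger4 and Ptger1 therefore made up nearly all of the EP receptor TPM, and the share counted to Ptger1 of that sum ranged from 6.48% (C11 GFP-negative) to 37.4% (WT no dDAVP) by group mean. The strand setting of the counting is not given in the sources used here, so TPM counted to Ptger1 may include reads that are not from it, and its levels, shares and changes are uncertain to that extent.

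Ptger1 (ENSMUSG00000019464, chr8:83666678-83672753, plus strand, GENCODE vM21 on GRCm38) was lower with dDAVP in unsorted WT cells but higher in the GFP-positive than the GFP-negative fraction of every clone. In WT cells without dDAVP the libraries held 69.5, 84.2 and 72.6 TPM, and with dDAVP 40.4, 48.1 and 33.9 TPM. All 3 treated libraries were below all 3 untreated ones, with means of 40.8 ± 7.15 and 75.4 ± 7.75 TPM (SD, n = 3 each). On log2(TPM + 1) the gene fell by 0.88 (SE 0.139; limma adjusted p = 0.0132). The median gene tested fell by 0.16 in the same comparison, and after median-ratio scaling, which brings that median to 0.00, Ptger1 fell by 0.71 (limma adjusted p = 0.0342). The adjusted p rose to 0.0524 without the second and to 0.0512 without the third untreated library, at changes of -0.80 and -0.91. A change in bulk RNA can come from fewer cells that express a gene or from less of its RNA per cell, and these cannot be told apart here.

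**Figure D1:**
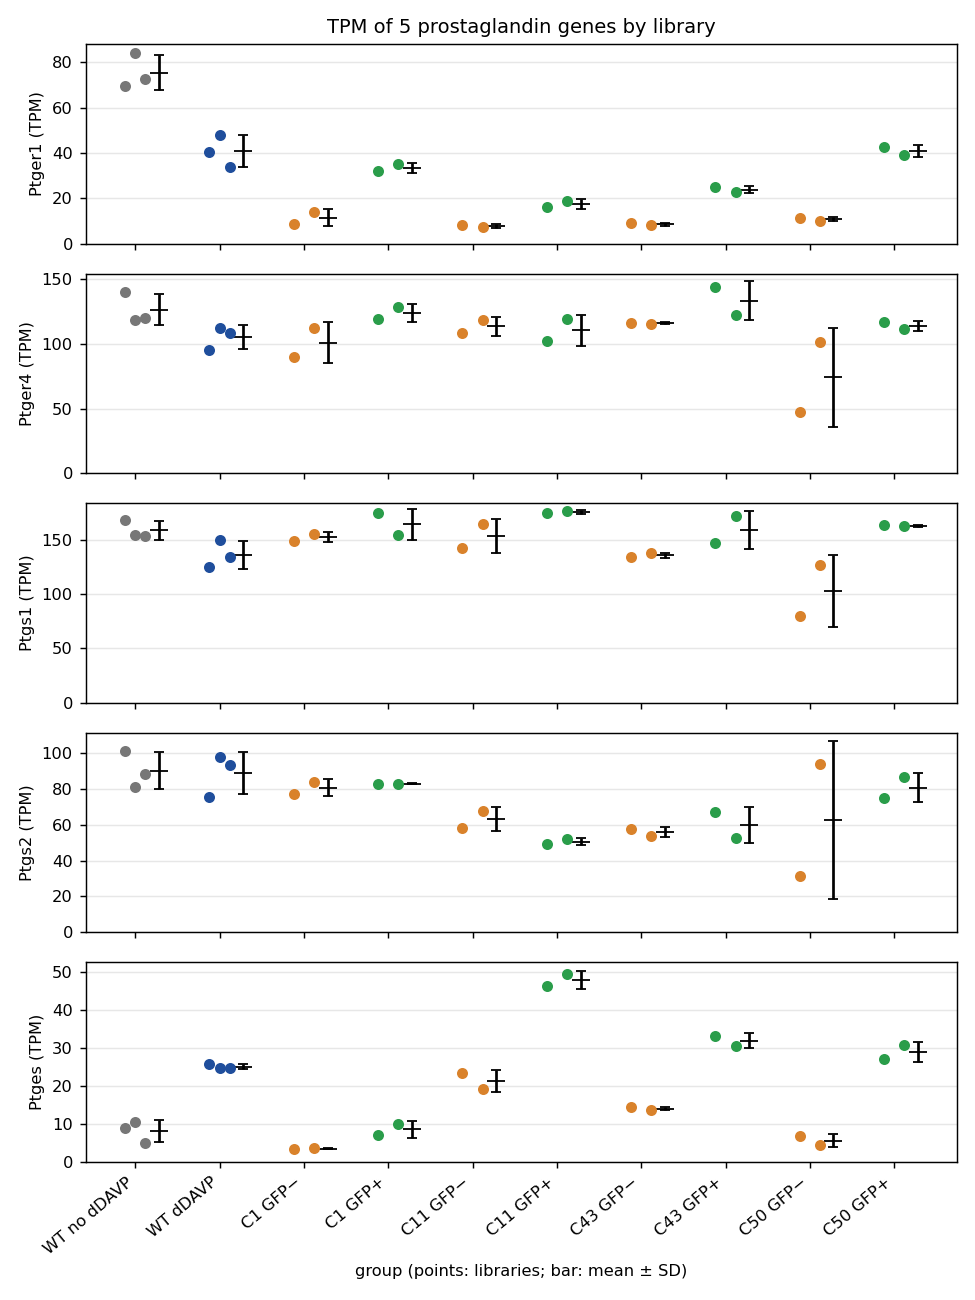
TPM of the 5 expressed members (one panel each, linear axes from 0) by group; points are libraries and bars the mean ± SD, in grey for WT without dDAVP, blue for WT with dDAVP, orange for GFP-negative and green for GFP-positive fractions. Ptger1 is highest in WT cells without dDAVP and does not exceed 14.2 TPM in any GFP-negative library, while Ptges is highest in C11 GFP-positive cells at 48.1 TPM.

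Between sorted fractions the order was the other way round. The GFP-negative libraries of C1 held 8.78 and 14.2 TPM of Ptger1 and its GFP-positive libraries 32.0 and 35.1. For C11 the values were 8.45 and 7.22 against 16.1 and 19.0, and for C43 9.15 and 8.11 against 24.9 and 22.8. C50 had 11.6 and 10.2 TPM in the GFP-negative and 42.6 and 39.2 TPM in the GFP-positive libraries. No GFP-positive library of any clone overlapped any GFP-negative library. The fraction difference over the clones was 1.44 on the log2 scale (SE 0.115, limma adjusted p = 4.26e-07, n = 16 libraries from 4 clonal lines). In 29 alternatives, clone means as replicates among them, the limma adjusted p reached 0.00323. By clone, C1 gave 1.50, C11 1.07, C43 1.37 and C50 1.82, with limma adjusted p of 0.000777, 0.00737, 0.000849 and 7.82e-05. Without the C50 library that stood apart, the values were 1.91 in C50 and 1.42 over the clones (limma adjusted p = 0.000232 and 5.14e-07). The C11 call was lost when its second GFP-negative or second GFP-positive library was left out, with adjusted p of 0.0787 and 0.0847. Sums of cell type markers also differed between the fractions, some with overlap, and a link to the Ptger1 difference was not tested. The principal cell list, which includes Aqp2, summed to 619.62 to 3030.71 TPM in GFP-negative and 3160.98 to 10796 TPM in GFP-positive libraries of the clones. Within it, Avpr2 and Fxyd4 were higher in the GFP-positive fraction of each clone and Aqp3 was lower (0.261 to 0.632 times). The proximal tubule list summed to 0.94 to 13.1 and 3.42 to 16.2 TPM in the same order. The intercalated cell list summed to 21.5 to 73.8 TPM in GFP-negative and 46.8 to 112.42 TPM in GFP-positive libraries of the clones, and its Atp6v1b1, a proton pump subunit gene, was 1.23 to 3.16 times higher by clone, with overlap in C11 and C43. Slc4a9, the other intercalated marker at a mean of 1 TPM or more, stood at 1.28, 0.862, 0.935 and 3.52 times the GFP-negative level in C1, C11, C43 and C50, with overlap in all but C50. The macrophage list summed to 17.4 to 31.6 TPM in GFP-negative and 11.7 to 21.5 TPM in GFP-positive libraries. Its Csf1r, a growth factor receptor gene, was at 0.539 to 0.824 times the GFP-negative level without overlap in any clone. Csf1r alone does not stand for the list, whose other marker at a mean of 1 TPM or more was Cd68. Other markers of these cells, Foxi1, Slc4a1 and Slc26a4 of the intercalated list and Adgre1 and Lyz2 of the macrophage list, had a mean below 0.1 TPM over all libraries. The interaction of fraction and clone did not pass the test for Ptger1 (limma adjusted p = 0.473).

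The dDAVP change in WT cells and the fraction difference share no library, and their difference could be tested directly. For Ptger1 it was -2.32 (SE 0.184; 95% interval -2.71 to -1.93; limma adjusted p = 8.49e-07), and it stayed past the threshold in 30 of 30 alternatives. The opposite directions of Ptger1 were known when the gene was listed, so this gives their size and is not independent evidence of them. By level, WT cells without dDAVP stood above all other groups, and C50 GFP-positive (40.9 TPM), WT dDAVP (40.8) and C1 GFP-positive (33.6) formed a run in which neighbours overlapped. C43 GFP-positive (23.9) and C11 GFP-positive (17.5) followed without overlap. The 4 GFP-negative groups were lowest, at 11.5 TPM in C1, 10.9 in C50, 8.63 in C43 and 7.84 in C11. Dividing the highest group mean by the lowest gave 9.63. Levels also differed among the clones with fractions averaged (limma adjusted p = 0.00319).

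**Figure D2:**
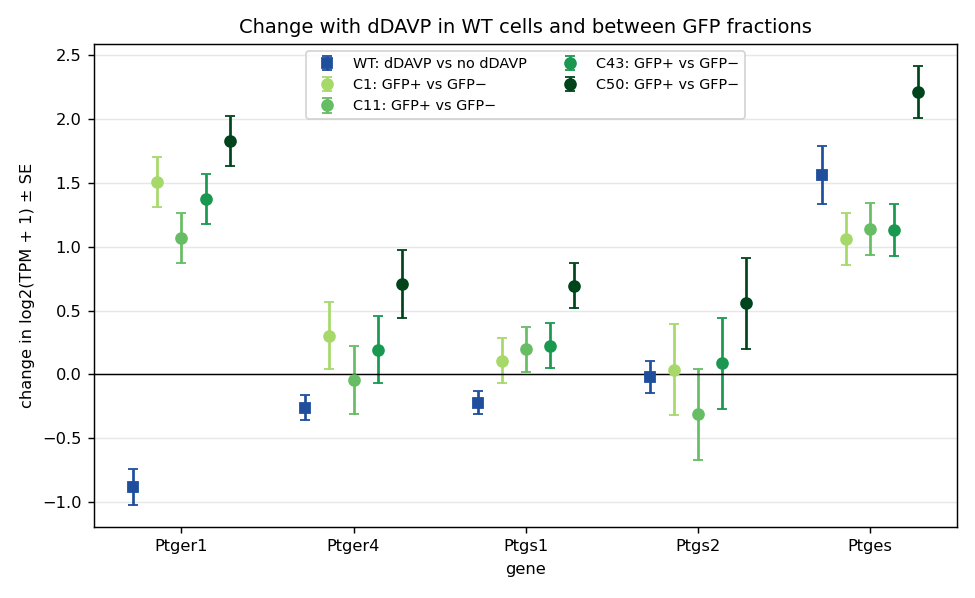
Change in log2(TPM + 1) ± SE of the 5 expressed members: squares for dDAVP against no dDAVP in WT cells, circles for GFP-positive against GFP-negative in each clone. Ptger1 lies at -0.88 in WT cells and between 1.07 and 1.82 in the clones, whereas Ptges lies above 1 in all of them.

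Ptger4 (ENSMUSG00000039942, chr15:5206661-5244187, minus strand), the cAMP-raising receptor, varied less than Ptger1, by 1.80 times between its highest and lowest group means, the lowest being C50 GFP-negative with the library that stood apart. Untreated WT libraries held 140.26, 118.66 and 119.92 TPM and treated ones 95.3, 112.51 and 108.19. The treated libraries were all lower, yet the change of -0.26 did not pass the test (95% interval -0.49 to -0.03; limma adjusted p = 0.129). It was -0.08 after median-ratio scaling (limma adjusted p = 0.488), and it passed, at -0.30, when the fit held a covariate for genes detected per library (limma adjusted p = 0.0392). GFP-negative and GFP-positive libraries overlapped in C11 but not in C1, C43 or C50, and the value over the clones was 0.29 (limma adjusted p = 0.119). That value passed after median-ratio scaling (0.37; limma adjusted p = 0.00621) and quantile normalization (0.35; limma adjusted p = 0.0159). It was 0.15 without the C50 library that stood apart, where Ptger4 was 47.2 TPM against 101.31 TPM in its partner (limma adjusted p = 0.0798). In C50 alone Ptger4 gave 0.71 (limma adjusted p = 0.0682), which passed in 4 of 24 alternatives, one of them without that partner (1.25; limma adjusted p = 7.67e-05). Its dDAVP change and fraction difference differed by -0.55 (limma adjusted p = 0.113), past the threshold in 5 of 30 alternatives. As Ptger1 changed far more, its share of EP receptor TPM went from 37.4% to 27.8% with dDAVP in WT cells, and from the GFP-negative to the GFP-positive fraction from 10.1% to 21.3% in C1, 6.48% to 13.7% in C11, 6.91% to 15.2% in C43 and 14.4% to 26.4% in C50. The C50 GFP-negative share was 19.7% in the library that stood apart and 9.10% in the other.

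Of the cyclooxygenases, Ptgs1 (ENSMUSG00000047250, chr2:36230426-36252272, plus strand) was the more abundant by TPM in each library, and Ptgs2 made up between 22.4% (C11 GFP-positive) and 39.4% (WT dDAVP) of their sum by group mean. Ptgs1 held 168.12, 153.86 and 153.27 TPM in untreated and 124.48, 149.74 and 134.24 TPM in treated WT libraries. The treated ones were again lower without passing the test (-0.22; limma adjusted p = 0.142). Over the clones Ptgs1 was higher in the GFP-positive fraction by 0.31 (SE 0.100; limma adjusted p = 0.0278), a call that ended in 8 of 29 alternatives, with adjusted p up to 0.116 when clone means served as replicates. Among single clones C50 gave a call (0.70; limma adjusted p = 0.0139), and C43 (0.22) gave one after median-ratio scaling only (0.41; limma adjusted p = 0.0443). The C50 call was lost when its first or its second GFP-positive library was left out (adjusted p = 0.0721 and 0.0699). Without the C50 library that stood apart, where Ptgs1 was 79.5 TPM against 126.34 in its partner, the C50 difference was 0.36 (limma adjusted p = 0.0482) and that over the clones 0.21 (limma adjusted p = 0.00502).

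The dDAVP change and the fraction difference of Ptgs1 differed by -0.53 (SE 0.153; limma adjusted p = 0.0323), which did not hold in 12 of 30 alternatives. Ptgs2 (ENSMUSG00000032487, chr1:150100031-150108227, plus strand) held 101.18, 80.8 and 88.3 TPM in untreated and 75.6, 97.9 and 93.2 TPM in treated WT libraries. These groups overlapped, and the change was -0.02 (95% interval -0.31 to 0.27; limma adjusted p = 0.917). The fraction difference of Ptgs2 over the clones was 0.09 (95% interval -0.29 to 0.47; limma adjusted p = 0.734). Its C50 GFP-negative libraries were at 31.3 and 93.9 TPM, the widest gap of any pair for this gene. Without the one at 31.3 TPM the C50 difference went from 0.56 to -0.22 and that over the clones from 0.09 to -0.09 (limma adjusted p = 0.353), none of them past the threshold, and differences among the clones reached limma adjusted p = 0.000506 against 0.311 with it. Without the other, at 93.9 TPM, the C50 difference was 1.33 and passed (limma adjusted p = 5.92e-05), as did the interaction of fraction and clone (adjusted p = 0.00146). The direction for Ptgs2 in C50 thus rested on which of these libraries was kept. GFP-negative and GFP-positive C11 libraries stood at 58.4 and 67.8 against 49.1 and 52.0 TPM, the lowest group mean of the 10 for this gene (50.6 TPM).

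Ptges (ENSMUSG00000050737, chr2:30889471-30929863, minus strand), the inducible microsomal prostaglandin E synthase, rose with dDAVP and was higher in GFP-positive cells. In WT cells it went from 9.05, 10.5 and 5.04 TPM to 25.9, 24.7 and 24.7 TPM. The treated libraries were tightly grouped and all above the untreated ones, at 25.1 ± 0.690 against 8.19 ± 2.82 TPM (SD, n = 3 each). The change was 1.56 (SE 0.226; limma adjusted p = 0.0102), and it passed the threshold in 14 of 14 alternatives. In the clones the GFP-negative libraries held 3.49 and 3.56 TPM in C1, 23.4 and 19.3 in C11, 14.4 and 13.7 in C43 and 6.80 and 4.35 in C50. Their GFP-positive counterparts held 7.05 and 10.1 TPM, 46.4 and 49.7, 33.4 and 30.6, and 27.0 and 30.9. Fractions did not overlap within any clone, although C11 GFP-negative cells were above C1 GFP-positive ones.

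The Ptges difference over the clones was 1.39 (SE 0.156, limma adjusted p = 1.14e-05). It was past the threshold in 29 of 29 alternatives, clone means as replicates among them, with limma adjusted p up to 0.0094. Single clones gave 1.06 (C1), 1.14 (C11), 1.13 (C43) and 2.21 (C50), with limma adjusted p of 0.00852, 0.00615, 0.00324 and 2.66e-05. Without the C50 library that stood apart, C50 gave 2.48 and all clones 1.36 (limma adjusted p = 1.37e-05 and 1.39e-05). The C1 call was lost without its first GFP-negative or second GFP-positive library (adjusted p = 0.0667 and 0.0964) and the C11 call without its second GFP-negative or second GFP-positive library (adjusted p = 0.0741 and 0.0659). The larger value in C50 did not give an interaction (limma adjusted p = 0.176), but one passed without the C50 library that stood apart (adjusted p = 0.0326). The dDAVP change and the fraction difference of Ptges were within 0.17 of each other, with a 95% interval of that gap from -0.33 to 0.67 (limma adjusted p = 0.658). Clones differed in level (limma adjusted p = 2.54e-06). In order of group means, C11 GFP-positive (48.1 TPM) was above C43 and C50 GFP-positive (32.0 and 29.0, overlapping), WT dDAVP, C11 GFP-negative (21.3) and C43 GFP-negative (14.1). C1 GFP-positive (8.57), WT no dDAVP and C50 GFP-negative (5.58) overlapped as neighbours, and C1 GFP-negative (3.53) was lowest, 13.6 times below the top.

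Both removal genes were low. Hpgd was listed at 0 in 20 of 22 libraries and did not exceed 0.06 TPM. Slco2a1 ranged from 0.02 to 1.36 TPM, with 5 of 22 libraries at 1 TPM or more, all of them from C11 and C50. Its highest group means were 1.24 TPM in C50 GFP-positive and 1.21 in C11 GFP-positive cells, against 0.08 in C1 GFP-negative cells. Ptger2, Ptger3, Hpgd and Slco2a1 had a mean under 1 TPM in each fit and were left out of the main tests. With every gene above 0 admitted, none of these 4 passed in any comparison, and the smallest adjusted p was 0.0799, for Slco2a1 among the clones (unadjusted p = 0.00717).

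Read against all genes, 2 of the 5 members tested passed in WT cells, where 8.88% of 13494 genes did, 320 higher and 878 lower. After median-ratio scaling the split over all genes was 562 higher and 317 lower. Over the clones 3 of 5 passed (Ptger1, Ptges and Ptgs1, all higher), where 35.3% of 13113 genes did, 34.2% of them higher and, after median-ratio scaling, 50.9% higher. The medians of the 5 members were -0.22 in WT cells, against -0.16 for all genes, and 0.31 over the clones, against -0.06. In single clones 2 of 5 passed in C1, C11 and C43 and 3 of 5 in C50, where 7.22%, 7.94%, 16.3% and 26.6% of all genes did. For the interaction 0 of 5 passed, where 0.869% of genes did in limma and 1691 were under an unadjusted p of 0.05, Ptges among them (unadjusted p = 0.00526). Levels differed among clones for 2 of 5, against 31.6% of genes, and the dDAVP change differed from the fraction difference for 2 of 5, against 13.9% of 13244 genes. Ptger1 is part of the last 2 of 5 and was listed with its opposite directions known, so that count is not independent evidence.

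The pathway around the members was described by 6 further lists with 58 genes. In WT cells 26 of them were tested and 5 passed: the carbonyl reductase genes Cbr1 (0.61) and Cbr3 (1.15), the monoacylglycerol lipase gene Mgll (1.17) and the G-protein gene Gna13 (0.34) rose, and the transporter gene Slco3a1 (-0.75) fell. The calls of Cbr3 held in 14 of 14 alternatives, those of Slco3a1, Cbr1, Mgll and Gna13 in 8 of 14, 7 of 14, 5 of 12 and 5 of 14. Over the clones 25 were tested and 14 passed, 7 higher and 7 lower in the GFP-positive fraction. The shares of all genes that passed, as given above, were 8.88% in WT cells and 35.3% over the clones. Their medians, -0.10 in WT cells and 0.04 over the clones, stood beside -0.16 and -0.06 for all genes.

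Arachidonate release had 4 of 17 genes tested, and over the clones Pla2g4a, the cytosolic phospholipase A2, was the one called (0.77; limma adjusted p = 0.000132). From the GFP-negative to the GFP-positive fraction its group means went from 49.4 to 76.6 TPM in C1, 71.4 to 94.2 in C11, 54.6 to 95.2 in C43 and 37.4 to 92.0 in C50. By clone it passed in C1, C43 and C50 (limma adjusted p = 0.0496, 0.00829 and 0.00028) but not in C11 (0.39; limma adjusted p = 0.208). The C50 GFP-negative libraries held 30.5 TPM, in the one that stood apart, and 44.3 TPM, and without the first the value over the clones was 0.68 (limma adjusted p = 1.60e-05). Other prostanoid synthases gave calls for all 6 of 6 tested genes of 10, with 1 higher (Cbr1, 0.26) and 5 lower, at a median of -0.56. The Cbr1 call ended in 13 of 29 alternatives, with limma adjusted p up to 0.292, and that of Hpgds in 2 of 28, without C11 and with clone means as replicates. The largest was Ptgds, lipocalin-type prostaglandin D synthase, at -2.24 (SE 0.198; limma adjusted p = 1.25e-06). Its libraries held 59.5 and 50.8 TPM in GFP-negative and 8.99 and 13.1 TPM in GFP-positive C1 cells, and in C43 10.9 and 7.59 against 0.59 and 0. GFP-positive libraries were also lower in C11 and C50, with means of 1.75 against 6.87 and 0.56 against 6.15 TPM.

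Akr1b3, the aldose reductase, which can form prostaglandin F2α, was lower by 1.21 in the GFP-positive fraction, with group means of 278.24 against 140.16 TPM in C1 and 214.6 against 73.3 in C50. The haematopoietic prostaglandin D synthase gene Hpgds (-0.77), and Ptges2 (-0.33) and Ptges3 (-0.34), whose products are further prostaglandin E synthases, completed the 5. Hpgds is also a gene of blood cells. The macrophage list, given above, had a lower sum in the GFP-positive fraction of each clone, with Adgre1 and Lyz2 near 0. Whether the Hpgds difference is linked to that sum was not tested. The Ptges3 value is uncertain where its reads are shared with processed copies. In WT cells Ptgds (-0.34), Akr1b3 (0.15) and Hpgds (-0.46) did not pass. For Ptgds and Akr1b3 the dDAVP change differed from the fraction difference, by 1.90 and 1.37 (limma adjusted p = 0.000747 and 1.22e-07), in 30 of 30 alternatives each.

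In the breakdown and transport list 5 of 7 genes were tested, and Cbr3 and Slco3a1 passed in both comparisons. Slco3a1, an organic anion transporter that accepts prostaglandins, was called in opposite directions like Ptger1. Slco3a1 held 17.2, 17.6 and 17.1 TPM in untreated and 8.02, 11.5 and 10.4 TPM in treated WT libraries, while over the clones Slco3a1 was higher in the GFP-positive fraction by 0.51 (limma adjusted p = 0.00155). Its GFP-positive group means of 55.1, 15.6, 7.08 and 11.8 TPM in C1, C11, C43 and C50 stood beside GFP-negative ones of 33.0, 14.3, 4.75 and 6.91, and by clone it passed in C1 and C50 (limma adjusted p = 0.0337 and 0.0133) but not in C11 or C43 (0.790 and 0.0867). The difference between both changes of Slco3a1 was -1.27 (limma adjusted p = 0.000131). Of 12765 genes tested in both comparisons, 685 were called in both and 46 (0.36% of those tested) in opposite directions, 35 of them lower with dDAVP and higher in the GFP-positive fraction. These were 1 of 5 members (Ptger1), 1 of 25 pathway genes (Slco3a1) and 1 of 13 marker genes (Scnn1g, a sodium channel subunit gene), and Ptger1 was listed with its opposite directions known. By group means without a call in both, Lrp2 and Scnn1a also had 0.550 and 0.662 times the untreated level with dDAVP and 1.22 to 2.80 and 1.05 to 1.90 times the GFP-negative level in the clones. The lipoxygenase, leukotriene and epoxide list had 3 of 3 genes tested over the clones called: Ephx1 (0.56) and Alox5ap (0.48) higher and Lta4h (-0.38) lower. The Alox5ap call ended in 4 of 29 alternatives, without C1, C11 or C43 and with clone means as replicates (limma adjusted p up to 0.140). Of the 7 G-protein alpha subunits tested, Gna13 was higher (0.67) and Gnas, the stimulatory subunit used by EP2 and EP4, slightly lower (-0.17), a call that ended in 19 of 29 alternatives. Receptors for the other prostanoids were below the level for testing, 0 of 5 genes.

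**Figure D3:**
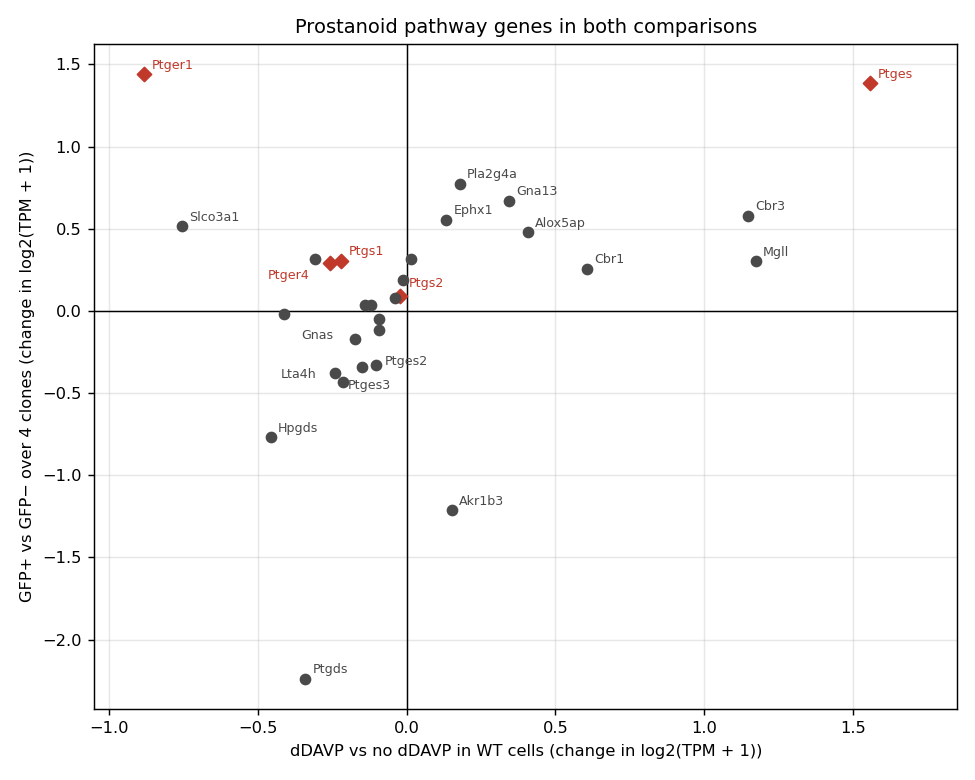
Change in log2(TPM + 1) with dDAVP in WT cells (x axis) and between GFP fractions over the clones (y axis) for 5 members (red diamonds) and 25 other genes (grey circles) tested in both; genes called in either comparison are named. Ptges and Cbr3 lie to the upper right, Ptger1 and Slco3a1 to the upper left, and Ptgds lies lowest at -2.24.

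Across the 10 group means Ptger1 and Ptges did not follow each other (Pearson r = 0.14), and beside Aqp2, r was 0.09 for Ptger1 and 0.67 for Ptges. These coefficients describe 10 groups that share clones and treatment. Of 9600 genes compared in this way, those most like Ptger1 were Anxa11 (r = 0.94), Zfp617 (0.93) and Arhgap6 (0.90). For Ptges they were Tcp11l2 (0.98), Soat1 (0.98) and Slc31a1 (0.97), and for Ptgs1 Cobll1, Zfp654 and Aff1 (0.97, 0.97 and 0.96). Ptger4 was most like Tbc1d23, Cblb and Wls (0.96, 0.96 and 0.95) and Ptgs2 most like Tmco3, G2e3 and Ipo4 (0.92, 0.91 and 0.91). All 3 genes named for Ptgs1 and all 3 for Ptger4 had their lowest group mean in C50 GFP-negative cells, the group with the library that stood apart.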

How the data were processed

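The 22 libraries were grouped from the sample labels. Per the labels' protocols, cDNA was made with SMART-Seq HT, libraries with Nextera XT, and reads were paired-end; the submitters' processing notes name STAR and RSEM, and build, annotation and strand setting are not given in the sources used here. The authors deposited TPM per gene and library, which were used as deposited; depth is unknown, so replicate spread alone gives the precision. The 16 deposited columns of group means, maxima and ratios were not used. Lines sharing a symbol (980 lines, 79 symbols) were summed.

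Linear models were fitted with limma 3.58.1 in R 4.3.3 on log2(TPM + 1), a pseudocount of 1 that understates changes of low genes, for genes with a mean of at least 1 TPM over the libraries of the fit, with a mean-variance trend. Tests were two-sided (F-tests for the interaction and the clone differences), with Benjamini-Hochberg adjustment over all genes, and genes under 0.05 were called. WT cells, clones, and all 22 libraries were 3 separate fits; single clones share the spread of the 8 clone groups. Scripts were tested on simulated data.

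The members, the lists and the opposite directions of Ptger1 were chosen with earlier results of these data known. Named genes were all members, called genes of the pathway lists, and the 3 genes closest to each expressed member by Pearson r over group means (mean TPM at least 5). Some genes of the cell type marker lists, and GFP, were named as well. Of 55414 identifiers, 94.0% matched GENCODE vM21, whose GRCm38 coordinates are given; the authors' build may differ. Alternatives covered pseudocount, filter, scaling, trend, detected genes, a replicate block and leaving out libraries or clones. Results on 1 further gene are not reported here.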

Additional observations from a re-analysis of the deposited data

Results flagged for a closer look

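For 2 of 5 members and 7 of 26 pathway genes tested, the dDAVP change in WT cells differed from the GFP fraction difference over the clones by a direct test (limma, all 22 libraries), as it did for 13.9% of all 13244 genes tested. The difference of both log2 changes was -2.32 for Ptger1 and -0.53 for Ptgs1 among the members. Among the pathway genes it was -1.27 for Slco3a1, -0.59 for Pla2g4a, -0.42 for Ephx1, -0.33 for Gna13, 0.57 for Cbr3, 1.37 for Akr1b3 and 1.90 for Ptgds. The differences of Ptger1, Slco3a1, Ephx1, Akr1b3 and Ptgds passed in 30 of 30 alternatives each. That of Ptgs1 lost its call in 12 of 30, Gna13 in 9 of 30 (median-ratio scaling and quantile normalization among them), Cbr3 in 5 of 30 and Pla2g4a in 2 of 30. Ptger1 and Slco3a1 were called in opposite directions in the 2 comparisons. Ptger1 was listed with its opposite directions known, so its part in the 2 of 5 and its 30 of 30 are not independent evidence. Reporter clone and sorting cannot be told apart from the comparison itself.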

How the results depend on the processing

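No member result that passed the threshold changed sign in the alternatives run. Of those that did not pass, Ptgs2 changed sign in every signed comparison but C11, Ptger4 in C11 and Ptges in the difference between both changes. Ptger1 and Ptges over the clones, Ptges in WT cells and the Ptger1 difference between both changes kept their calls in every alternative listed (29, 29, 14 and 30). In WT cells the 1198 calls became 442 with all genes above 0, 691 without the trend, 2694 with detected genes as a covariate and 122 with the replicate block. With all genes above 0, C1, C11, C43 and C50 gave 609, 607, 1346 and 2291 calls, and with the replicate block C1 and C11 gave 615 and 564, against 947, 1041, 2134 and 3486. Clone means as replicates gave 2406 calls over the clones, against 4626. The interaction went from 114 to 234 with quantile normalization and to 11 with the block. The difference between both changes went from 1838 calls to 1066 with all genes above 0, 2787 with the covariate and 1155 with the block, and in the first and last of these its members called went from 2 to 1 each. The cause of these shifts was not tested.

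Leaving out 1 library at a time gave 314 to 2038 calls in WT cells, 377 to 2094 in C1, 318 to 2331 in C11, 858 to 3891 in C43, 1793 to 6820 in C50, 2857 to 7947 among clones, 42 to 5038 for the interaction and 1082 to 4503 for the difference. The highest counts for C1, C50, clone levels, the interaction and the difference came without the second GFP-negative C50 library, which leaves the one that stands apart. In C11 both GFP-negative C50 libraries gave the same highest count when left out, in C43 it came without the first (3890 without the second), and in WT cells without the second dDAVP library. Members called ranged from 1 to 2 in WT cells and C1, 0 to 2 in C11, 2 to 5 in C50 and among clones, 0 to 3 for the interaction and 1 to 3 for the difference.

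Between the deviations of same-numbered libraries r lay from -0.212 to -0.0305 for WT cells and from 0.0079 to 0.211 for clones, over 0.1 in 1 of 4, so the numbers were not taken as pairing the libraries. With the replicate block Ptgs1 lost its difference (limma adjusted p = 0.0668), and other members kept their calls. No block could be fitted for clone levels, since blocks nest in clones. With 2 libraries a fraction and unknown depth, small differences such as those of Ptgs2 and Ptger4 remain undecided.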
